A study of Mus musculus with 17 samples.

Results

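Liver RNA of mice carrying a miR-29 transgene was compared with that of wild-type mice of the same age, 2 months. Of 17 libraries of polyadenylated RNA in the series, 12 entered the comparison, 6 transgenic and 6 wild type. They were chosen by their labels alone. The wild-type mice are described as B6, a common inbred strain. The transgene's promoter, the strain of the transgenic mice and any treatment are not stated in the labels. The transgenic libraries came from 2 males and 1 female in batch A and from 3 males in batch B. The wild-type libraries came from 2 males and 2 females in batch A and from 2 males in batch B. Batch A was prepared with an Illumina TruSeq kit at the University of North Carolina, and batch B at Cornell University with the NEBNext Ultra II Directional kit. The labels do not say that each library came from a separate animal, so the p-values measure the spread between these libraries. A library is called by its number in the labels below, 1 to 6 in each group.

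MicroRNAs of the miR-29 family are short RNAs that pair through their seed, the bases near the 5′ end, with matching stretches in the 3′ untranslated regions of messages and lower the stability or translation of those messages. Messages for collagens, elastin and the de novo DNA methyltransferases are well known targets. The family is encoded by a pair of gene clusters. The mature sequences are given below because every family member carries the same seed, shown in capitals (RefSeq, GRCm38.p6, 5′ to 3′). The sequences encoded at Mir29a, at chr6:31062673-31062694 on the minus strand, at Mir29b-1, at chr6:31063025-31063047 on the minus strand, and at Mir29c, at chr1:195037600-195037621 on the plus strand, are these.
miR-29a-3p: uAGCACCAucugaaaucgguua
miR-29b-3p: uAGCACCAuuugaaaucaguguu
miR-29c-3p: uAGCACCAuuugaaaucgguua

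RNA from the miR-29 loci was examined first. All 4 hairpin genes, Mir29c with Mir29b-2 and Mir29a with Mir29b-1, were listed at 0 in all 12 libraries, and selection of polyadenylated RNA does not keep mature microRNAs. RNA from Gm27019 was present in every transgenic library and in no wild-type library. Gm27019 is a long noncoding RNA gene annotated at chr6:31063092-31063495 (GRCm38), whose end overlaps the Mir29b-1 hairpin on the same strand. Its normalized counts were 8.84, 4.20 and 8.56 in transgenic libraries 1 to 3 of batch A, and 20.1, 47.5 and 51.8 in transgenic libraries 4 to 6 of batch B. It was listed at 0 in all 6 wild-type libraries of this age, and also at 0 in the 5 wild-type libraries from 2-year-old mice. The groups did not overlap, and the difference passed the test described below (adjusted p = 0.00181). The gene was picked out after its values were seen. It reached the mean of 10 normalized counts needed for that test only through the transgenic libraries. Its separation and p-value are therefore no independent check of the genotype labels. A330023F24Rik, the noncoding host gene of the cluster on chromosome 1, did not pass, with a log2 fold change of -0.14 ± 0.41 (SE) and adjusted p = 0.876.

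Values are the authors' normalized counts, which summed to between 28077001 and 44543936 in a library, so sequencing depth is unknown. Xist and 4 Y-linked genes matched the labelled sex in all 12 libraries. The hepatocyte product albumin, Alb, did not pass the test (log2 fold change -0.00 ± 0.48), nor did the hepatocyte regulator Hnf4a (0.31 ± 0.23). Of 15 hepatocyte products and regulators 2 fell, Cebpa (-0.86 ± 0.23) and transthyretin, Ttr (-1.23 ± 0.35). Cebpa lost its call unless the library left out was wild-type 1 or transgenic 1 or 4, and Ttr unless it was wild-type 1 or transgenic 1 (adjusted p up to 0.0961 and 0.144). Of 13 markers of pancreas, fat, muscle and kidney, 12 were too low to test, and the elastase gene Cela1 fell. In a principal component analysis of log2 values the first component, with 44.1% of the variance, separated the batches, and the second, with 20.2%, separated the genotypes. The third, with 8.73%, set the transgenic female, library 3, apart from the other 11 libraries.

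**Figure D1:**
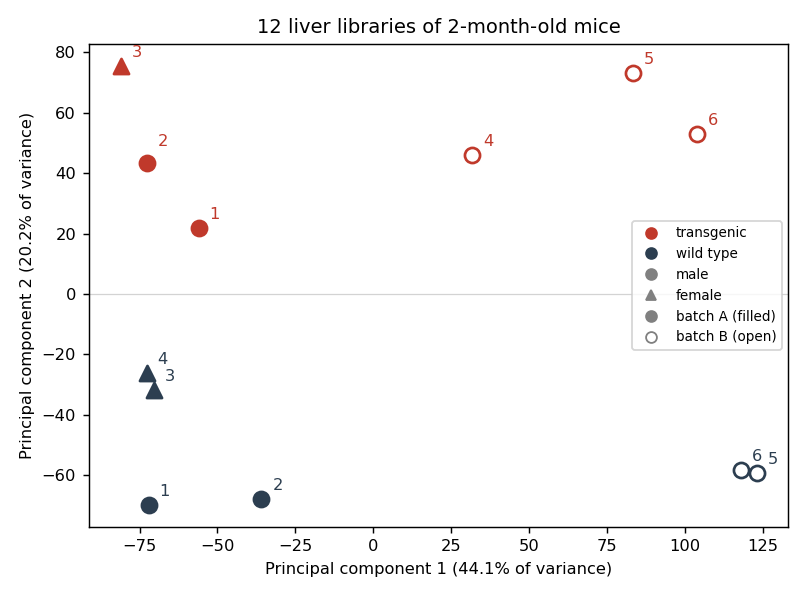
Principal components 1 and 2 of log2(normalized count + 1) over the 12 libraries. Red marks are transgenic and dark marks wild type, triangles are females, and open marks are batch B; numbers are the library numbers. All 6 transgenic libraries lie above 0 on component 2 and all 6 wild-type libraries below 0.

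Of 14584 genes with a mean of at least 10 normalized counts, 1466 (10.1%) differed between transgenic and wild-type liver at an adjusted p under 0.05 in limma, with batch and sex as covariates. Higher in transgenic liver were 622 (4.26%) and lower were 844 (5.79%). The words rose and fell are used below for these genes. The median log2 fold change was 1.60 among the rises and -1.32 among the falls. A log2 change of at least 4, which is 16-fold, was reached by 48 rises and 69 falls, and one of at least 6 by 6 rises and 32 falls. The groups did not overlap, all 6 transgenic libraries being above all 6 wild-type libraries, for 157 of the 622 rises, where 1.16% of all genes tested show such a separation. All 6 transgenic libraries lay below all 6 wild-type libraries for 242 of the 844 falls, against 1.84% of all genes. Calls and separation come from the same values, so neither is a check on the other. Messages that fell took 19.3% ± 6.12 (SD, n = 6) of a wild-type library's total and 5.41% ± 1.26 of a transgenic library's. Messages that rose took 3.18% ± 0.665 and 10.5% ± 2.38.

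The balance of rises and falls depended on the scaling. With the authors' scaling 42.4% of the called genes rose. With every library scaled to the same total, 1417 genes were called, 885 higher and 532 lower, so that 62.5% rose, and the median log2 difference of all genes moved from 0.01 to 0.17. All 1154 genes called under both scalings had the same direction. With batch alone as the covariate 1141 genes were called, 480 higher (3.29%) and 661 lower (4.53%), and the 1130 of these that were also called with batch and sex kept their direction. The authors' deposited table for this comparison called 2204 genes, including 1446 of the 1466, all in the same direction.

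**Figure D2:**
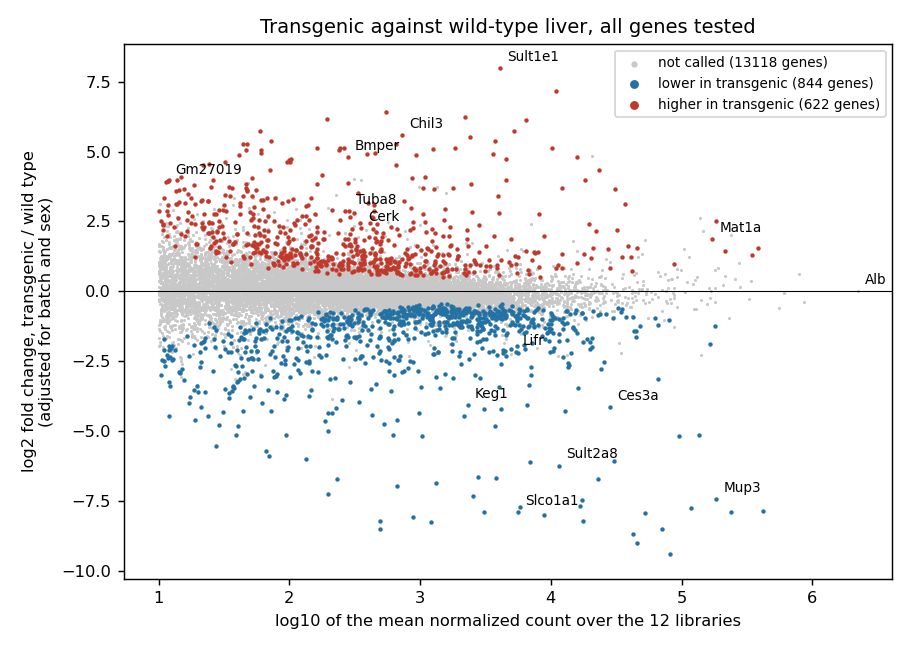
Log2 fold change of each of the 14584 genes tested, adjusted for batch and sex, against the log10 of its mean normalized count; red genes rose and blue genes fell. The falls reach furthest at the Mup cluster, down to -9.43.

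Among the falls with the smallest p, Slco1a1 (chr6:141907282-141946962), an uptake transporter for organic anions and steroid sulfates, had a lowest, median and highest count of 2444, 9428 and 25346 in wild type and of 19.4, 36.8 and 81.2 in transgenic liver. The groups were separated by a wide gap, and the 2 wild-type females, libraries 3 and 4, were the lowest of their group. The log2 fold change was -7.90 ± 0.36 (SE, adjusted p = 2.26e-07). Keg1 (chr19:12695786-12719902), a glycine N-acyltransferase-like gene, had 1405, 5168 and 6674 against 115, 319.6 and 440.4 (-4.09 ± 0.20, adjusted p = 2.26e-07). Sult2a8 (chr7:14410686-14446769), a sulfotransferase, had 13953, 19580 and 33959 against 89.0, 384.1 and 841 (-6.25 ± 0.38, adjusted p = 1.19e-06). In wild type of batch A the females were 0.77 below the males on the log2 scale for Sult2a8.

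Serpina12, the secreted serine protease inhibitor vaspin, fell by 6.69 on the log2 scale, but its groups overlapped because wild-type females had only 284 and 385 counts. Ces3a, a carboxylesterase that hydrolyses lipids, fell from a median of 47759 to 4082 counts, with no overlap. Hsd17b2, which oxidizes estradiol and testosterone, fell from a median of 5425 to 1409 (-2.15 ± 0.17), with no overlap. Nudt7, a peroxisomal hydrolase of coenzyme A, and Ugt2b38, a glucuronosyltransferase, fell by 4.28 and 8.51. Ugt2b38 was at 16.3 or above in every wild-type library and at 3.37 or below in every transgenic library.

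Mup16 and Mup3 complete that group, at -8.23 ± 0.40 and -7.44 ± 0.40. They encode major urinary proteins, pheromone carriers that the liver secretes. The largest losses in share of a library's total were those of Mup20, Mup7, Mup3, Serpina1e and Mup10. Mup20, also called darcin, took 2.06% ± 1.92 (SD, n = 6) of a wild-type library and 0.0104% ± 0.0160 of a transgenic library. The groups overlapped for Mup20 and Mup7, whose wild-type females were far below the males. Serpina1e, an alpha-1-antitrypsin gene, took 0.692% ± 0.579 and 0.0203% ± 0.0115. Copies within the Mup, Serpina1 and Ugt2b families are nearly identical, so values of single members are uncertain.

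Among the rises with the smallest p, Cerk (chr15:86139128-86186141), ceramide kinase, had a lowest, median and highest count of 71.5, 152.6 and 169.1 in wild type and of 342, 502.7 and 903.9 in transgenic liver. Its log2 fold change was 2.26 ± 0.17 (SE, adjusted p = 1.23e-05), and the batches gave 2.27 (A) and 2.26 (B). Tuba8 (chr6:121210696-121226854), an alpha-tubulin, had 36.3, 59.1 and 99.3 against 306.3, 562.7 and 652 (2.87 ± 0.24, adjusted p = 1.6e-05). The groups did not overlap for either gene, and wild-type females and males differed by 0.12 or less on the log2 scale.

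Sult1e1 (chr5:87575969-87591594), the estrogen sulfotransferase, had 7.66, 22.6 and 102.6 counts in wild type and 1046, 7604 and 15021 in transgenic liver (7.98 ± 0.67, adjusted p = 1.6e-05). Bmper (chr9:23223076-23485200), a secreted binding protein of bone morphogenetic proteins, had 6.45, 21.3 and 29.7 against 196.2, 402.7 and 1241 (4.80 ± 0.41, adjusted p = 1.94e-05). Brca1 (chr11:101488764-101551955), a DNA repair protein, had 18.4, 46.7 and 50.6 against 187.9, 254.3 and 388.2 (2.75 ± 0.29, adjusted p = 9.08e-05). In each of the 3 genes every transgenic library lay above every wild-type library.

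Specc1, which encodes a cytospin, rose by 2.20 ± 0.23 with no overlap. Fmo2, a flavin monooxygenase, rose by 2.54 on the log2 scale, and its groups overlapped, with wild-type females above wild-type males. Chil3, a lectin of activated macrophages, and S100a8, a calcium-binding protein of neutrophils, rose by 5.60 and 5.14 and are taken up with the immune genes.

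**Figure D3:**
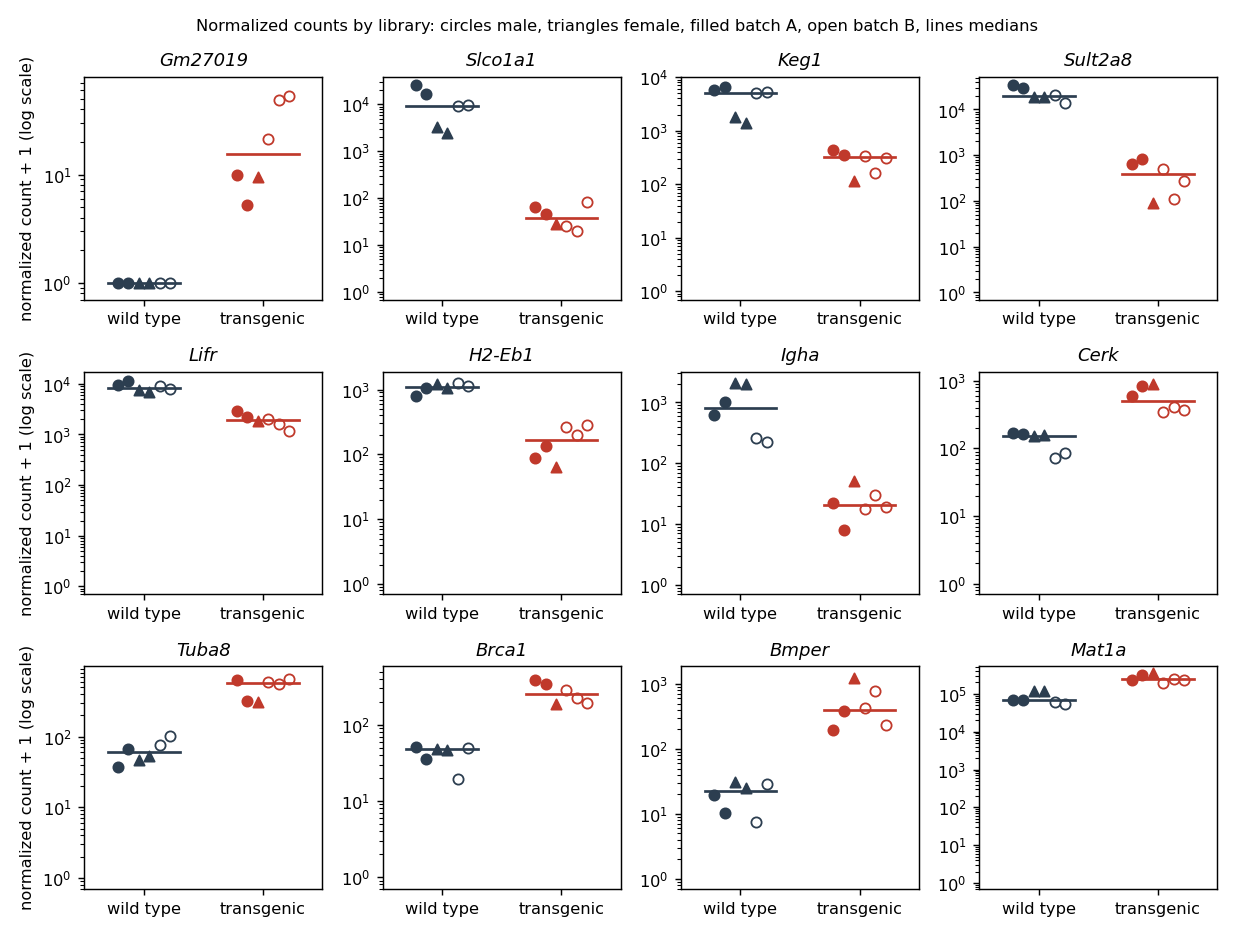
Normalized counts plus 1, on a log scale, of 12 genes in each of the 12 libraries; circles are males, triangles females, filled marks batch A, open marks batch B, and lines the group medians. In each panel all transgenic libraries lie on one side of all wild-type libraries, with Gm27019 at 0 in every wild-type library.

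Several genes outside the rule for named genes were picked out after their values were seen, because they are abundant or complete a group. Mat1a (chr14:41105035-41124412), the hepatic methionine adenosyltransferase that makes S-adenosylmethionine, rose from a lowest, median and highest count of 55347, 69728 and 118852 to 193077, 241057 and 352696 (1.86 ± 0.22, adjusted p = 0.000201). It took 0.230% of the total in wild type and 0.778% in transgenic liver. Lifr (chr15:7090614-7197489), the receptor of leukemia inhibitory factor, fell from 7028, 8450 and 11527 to 1180, 1972 and 2928 (-2.18 ± 0.18, adjusted p = 1.55e-05). Sucnr1 (chr3:60081869-60087566), the succinate receptor, fell by 3.97 ± 0.34, and Mcm10 (chr2:4989714-5012791), a DNA replication factor, by 4.46 ± 0.36. None of these 4 genes overlapped between the groups. Ces3b, a carboxylesterase closely related to Ces3a, fell by 4.09 ± 0.34.

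Neighbouring genes fell together in several gene clusters. A run was counted where at least 4 genes that follow each other among the tested genes of a chromosome were all called in one direction. There were 7 runs, and all were of falls. The longest, at chr4:59964294-62150863, held 26 genes of the Mup cluster with a median log2 fold change of -7.73. Others held 6 genes of the Ugt2 cluster (chr5:87014160-87424203, median -2.04), 5 of the Cyp2d cluster (chr15:82402846-82764183, -1.97), 4 of the Ces2 cluster (chr8:104734003-104934672, -3.27) and 4 MHC class II genes (chr17:34238903-34316674, -2.80). A run of 5 on chromosome 8 (chr8:45069137-45382291, median -1.32) joined the genes for the clotting factor F11 and prekallikrein, Klkb1, with Mtnr1a, Cyp4v3 and Fam149a. The seventh held Psme1 and Psme2, subunits of a proteasome activator, with Fitm1 and Emc9 (chr14:55575617-55591113, -0.94). In the Mup run Mup6 and Mup-ps13 were at 0 in every transgenic library, and in the Ugt2 run Ugt2b38 was near 0. These genes passed the filter on the mean only through the wild-type libraries. They could not have been called higher, so the filter partly sets the lengths of those runs. Chromosome 4 had the largest share of falls of any chromosome, 92 of its 933 tested genes or 9.86%. The 92 include the 26 genes of the Mup run. Chromosome 15 came next, with 7.43%.

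Gene lists are described next. Lists and members were chosen with earlier results of these data known, so the counts are descriptions. Counts are read against the 4.26% of all genes that rose and the 5.79% that fell. Beside the members that the rule for named genes picks, further members are given for their role, chosen with their values known.

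Many messages of mouse liver differ between the sexes, under the control of the pulse pattern of growth hormone, which is intermittent in males and near continuous in females. All 16 male-biased genes of a list fell, with a median log2 fold change of -5.91, where 5.79% of all genes fell and the median of all genes was 0.01. Among them Hsd3b5, a steroid reductase, went from 46.0 to 12123 counts in wild type to 9.39 to 51.9 in transgenic liver. Cyp7b1, an oxysterol and steroid hydroxylase, went from 835.1 to 12623 to a range of 164 to 261.4. For both genes the 2 wild-type females were the lowest wild-type libraries, and every transgenic value of Cyp7b1 lay below them, while Hsd3b5 overlapped. Mup20, of the same list, ranged from 523.3 to 16713 in transgenic liver. The list is not independent of the falls named above, since Slco1a1, Nudt7, Ugt2b38, Serpina1e and Mup20 belong to both. Ugt2b38 passed the filter on the mean only through the wild-type libraries, so it could not have been called higher.

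Of 20 female-biased genes 12 rose and 0 fell, where 4.26% of all genes rose, and the median was 3.62. Cux2, a transcription factor of female liver, had 2.82 to 33.6 counts in wild-type males, 288.2 and 306.8 in wild-type females, and 217.4 to 1164 in transgenic liver. Cyp39a1, an oxysterol hydroxylase of bile acid synthesis, rose by 2.38 ± 0.26. The members not called included A1bg (0.98 ± 1.44) and Hamp2 (-0.89 ± 1.03). The fit gives 1 transgene effect for both sexes. In the males of batch B alone, A1bg was 5.02 higher in transgenic liver on the log2 scale. In wild type of batch A the females were 9.60 above the males for A1bg. Without wild-type library 6, 7 of the 20 rose, and with batch alone as covariate 5 did. In the 9 males alone 16 rose.

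The sex difference and the transgene difference were then measured in libraries that share nothing. The sex difference was taken from the 4 wild-type libraries of batch A, and the transgene difference from the 5 male libraries of batch B. In batch B 1.98% of the 14505 genes tested were called higher and 1.72% lower. Genes entered with a mean of at least 10 over those 5 male libraries as well as over all 12 libraries. A gene near 0 in the males of either genotype could enter only through the males of the other. The filter therefore partly sets the counts, shares, medians and correlation that follow. A gene was classed by a difference of at least 4-fold in the mean log2 value, with no overlap between the 2 males and the 2 females. Of 113 genes higher in wild-type males, 52 were called lower and 2 higher in transgenic males of batch B, 81.4% had a difference below 0, and their median was -3.53. Of 130 genes higher in wild-type females, 41 were called higher and 1 lower, 76.2% had a difference above 0, and their median was 2.34. Among the other 13874 genes 242 were called higher and 195 lower, with a median of -0.04. Across all 14117 genes the correlation of the 2 differences was 0.37, a description over genes that share libraries. Of the 1466 genes called in all 12 libraries, 1347 were counted as having a wild-type sex difference under 4-fold or overlapping. That count includes any called genes that were not tested in batch B and so were not classed. Among the 14117 genes tested both in batch B and in all 12 libraries, 13874 had such a difference.

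**Figure D4:**
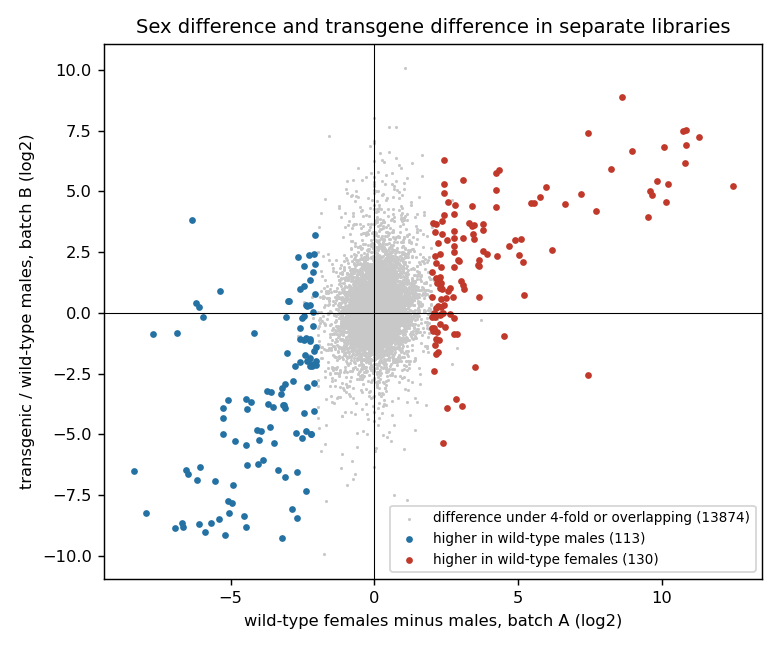
Difference between wild-type females and males in batch A (horizontal, log2) and between transgenic and wild-type males in batch B (vertical, log2) for 14117 genes. Blue genes, higher in wild-type males by at least 4-fold without overlap, have a median of -3.53 on the vertical axis, and red genes, higher in wild-type females, a median of 2.34. The filter on the mean in batch B partly sets both medians.

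Of 17 genes of the growth hormone and IGF axis, 2 (11.8%) rose and 3 (17.6%) fell, with a median of 0.05. The falls were the growth hormone receptor Ghr, Igf1 and Igfals (-2.02 ± 0.41), which stabilizes IGF1 in blood, and in males alone 1 of them fell. Ghr had a lowest, median and highest count of 9411, 12757 and 14802 in wild type and of 1965, 4609 and 6577 in transgenic liver (-1.62 ± 0.25, adjusted p = 0.00138). Igf1, the main hormone that growth hormone induces in liver, had 11388, 16744 and 18351 against 5403, 8555 and 10926 (-0.95 ± 0.22, adjusted p = 0.0148). Neither gene overlapped between the groups, but Igf1 lost its call without transgenic library 3 (adjusted p = 0.0553). Igfbp1, an IGF-binding protein induced by fasting and stress, rose by 3.13 ± 0.50, and Socs3, an inhibitor of cytokine receptors, by 2.22 ± 0.47. The signalling genes Jak2 (-0.23 ± 0.21), Stat5a (0.14 ± 0.30) and Stat5b (0.33 ± 0.20) did not pass, nor did the growth hormone target genes Cish (0.05 ± 0.49) and Socs2 (1.21 ± 0.64).

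Fatty acid catabolism was the metabolic list with the most falls. Of 30 genes of fatty acid oxidation and PPAR alpha targets, 13 fell and 4 rose, and the median was -0.57. Fabp1, the abundant fatty acid-binding protein of hepatocytes, had 121126 to 246150 counts in wild type. In transgenic libraries 1 to 6 it had 81659, 3197, 339.9, 6934, 3690 and 17074. The groups did not overlap, and library 1 was closest to wild type (-5.18 ± 0.84, adjusted p = 0.00199).

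Ppara, the nuclear receptor that drives this program, fell by 1.53 ± 0.33, and its partner Creb3l3 by 1.24 ± 0.16. The peroxisomal thiolase Acaa1b fell by 2.64 ± 0.41, the lipid droplet protein Plin2 by 1.94 ± 0.31, and the fasting hormone Fgf21 by 3.41 ± 0.80. The 4 rises were the fatty acid transporter Cd36 (2.21 ± 0.30), the coactivator Ppargc1a (1.60 ± 0.30) and the fatty acid hydroxylases Cyp4a14 (3.70 ± 0.76) and Cyp4a10 (2.75 ± 0.65). Cd36 and Cyp4a14 were higher in wild-type females than in wild-type males, Cyp4a14 at 26361 and 36330 against 37.7 to 1685. The gatekeeper of mitochondrial uptake, Cpt1a, was at 0.03 ± 0.22. Without transgenic library 3, 8 of the list's genes fell, and in males alone 6 did.

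Lipid synthesis depended on transgenic library 1. Of 20 genes of fatty acid and triglyceride synthesis 5 fell and 0 rose, with a median of -1.22, among them the malic enzyme Me1 (-2.22 ± 0.28) and the lipogenic regulator Thrsp (-2.78 ± 0.51). Fasn, fatty acid synthase, had 6464 to 18484 counts in wild type and 24723, 4140, 1579, 6674, 2272 and 3810 in transgenic libraries 1 to 6 (-1.31 ± 0.56, adjusted p = 0.162). Library 1 was the highest of all 12, library 4 lay within the wild-type range, and the other 4 transgenic libraries lay below it. Without library 1, 13 of the 20 genes fell. With 1 of wild-type libraries 3, 4 and 6 or transgenic libraries 2, 3 and 5 left out in turn, 3 fell, in males alone 2 did, and with libraries scaled to the same total 3 did.

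Of 22 genes of cholesterol synthesis and uptake 1 fell, and 11 fell without transgenic library 1. The 1 was Sc5d, a late enzyme of the pathway (-2.02 ± 0.50), whose call was lost without transgenic library 2, 3 or 5 or wild-type library 6 (adjusted p between 0.0508 and 0.0887). The list's median was -0.77, and 20 of 22 members were below 0.

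Among 24 tested genes of bile acid synthesis and transport, 3 (12.5%) rose, or 1 with batch alone as covariate, and 6 (25%) fell. The falls included Cyp7b1 and Hsd3b7 (-1.47 ± 0.27), both enzymes of synthesis, Cyp8b1, which sets the cholic acid share (-1.56 ± 0.34), the canalicular export pump Abcb11 (-1.17 ± 0.24), and the uptake carrier Slco1b2 (-0.86 ± 0.20). The rises were the basolateral exporters Abcc4 (2.31 ± 0.34) and Slc51b (1.83 ± 0.51) and the carrier Slco1a4 (2.79 ± 0.40). Abcb11 had 8585 to 18845 counts in wild type and 4080 to 8721 in transgenic liver. Slco1a4 was higher in wild-type females, at 4844 and 5704, than in wild-type males, at 191.8 to 531.1. Cyp7a1, the rate-limiting enzyme of the classic pathway, varied from 776.2 to 10609 in transgenic liver and did not pass (1.73 ± 0.65, adjusted p = 0.115).

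Other metabolic lists moved in both directions. Of 25 xenobiotic cytochromes P450 and their receptors 7 rose and 4 fell, led by Cyp2c39 (3.87 ± 0.42) and Cyp2c38 (2.94 ± 0.40) among the rises and Cyp2f2 (-2.71 ± 0.49) and Cyp2c55 (-2.56 ± 0.54) among the falls. Without wild-type library 2, wild-type library 6 or transgenic library 5, and with batch alone as covariate, 4 rose. In males alone 1 fell. Por, the reductase that supplies electrons to these enzymes, rose by 1.54 ± 0.30. Of 18 pericentral genes 3 (16.7%) rose and 1 (5.56%) fell. Cyp1a2, a pericentral P450, fell by 2.36 ± 0.55, and lost its call without transgenic library 3 (adjusted p = 0.0564). The rises of the transporters Slc1a2 (0.92 ± 0.24) and Slc13a3 (1.48 ± 0.40) did not hold in general. Slc1a2 lost its call without wild-type library 2, 4 or 6 or transgenic library 2, 3 or 5, and Slc13a3 kept it only without wild-type library 3 or 4 or transgenic library 3 or 6 (adjusted p up to 0.0874 and 0.0987). In limma 0 pericentral genes rose without wild-type library 2 or 6 or transgenic library 2 or 5, and 1 rose without wild-type library 4 or 5 or transgenic library 4. The medians of both lists, at -0.07 and -0.08, changed sign when libraries were scaled to the same total.

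Of 18 periportal genes 2 (11.1%) rose and 2 (11.1%) fell. The urea cycle enzyme Asl rose by 1.21 ± 0.23 while Otc, the enzyme 2 steps before it, fell by 1.37 ± 0.25, with 15074 to 19794 counts in wild type and 3027 to 9248 in transgenic liver. Sdsl (1.28 ± 0.36) kept its call only without wild-type library 2 or transgenic library 1 or 4, and Agxt (-0.67 ± 0.20), which detoxifies glyoxylate, only without wild-type library 1 or transgenic library 6 (adjusted p up to 0.15 and 0.131). Of 17 genes of glucose metabolism Irs2, an adaptor of the insulin receptor, rose (2.24 ± 0.43), as did the kinase Sik1 (1.99 ± 0.44, adjusted p = 0.0506 without transgenic library 3). Pklr, liver pyruvate kinase, fell by 2.12 ± 0.39, and Pygl, liver glycogen phosphorylase, by 0.92 ± 0.25. Pygl kept its call only without wild-type library 5 or transgenic library 1 or 4 (adjusted p up to 0.124 without the others), and 4 genes rose without transgenic library 1.

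Stress and rhythm lists are read against 4.26% of all genes higher and 5.79% lower. Of 23 glutathione and NRF2 genes 3 (13%) rose and 2 (8.7%) fell, with heme oxygenase Hmox1 at 340 to 644 counts in wild type and 1148 to 4983 in transgenic liver (2.29 ± 0.34). Gstt3 rose by 1.64 ± 0.39 and Nqo1, a quinone reductase, was the other rise, while the glutathione transferases Mgst1 (-1.21 ± 0.19) and Gstm4 (-1.56 ± 0.34) fell. Without wild-type library 5 or 6, or with batch alone as covariate, 1 rose, and without transgenic library 1 or 4, 4 fell. Of 23 unfolded protein and integrated stress response genes, asparagine synthetase Asns rose (2.45 ± 0.36) and Pdia6, a disulfide isomerase, fell (-0.74 ± 0.18). Pdia6 lost its call without wild-type library 2 or transgenic library 2 or 3 (adjusted p between 0.0532 and 0.0687).

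Of 18 immediate early genes 4 (22.2%) rose, among them Btg2 (2.82 ± 0.31, no overlap) and Fosl2 (1.94 ± 0.36), and 7 rose without transgenic library 1. The 1 fall was Cyr61, a matricellular protein (-1.36 ± 0.38), whose call held only without wild-type library 1 or transgenic library 2, 3 or 6 (adjusted p up to 0.0972). Of 21 circadian genes 2 (9.52%) rose and 1 (4.76%) fell. Per1 (1.09 ± 0.20) and Cry1 (1.34 ± 0.38), both repressors of the clock, rose. Nr1d1, the repressor REV-ERB alpha, fell from 461 to 2842 counts to 23.7 to 414.4 (-2.85 ± 0.54). Cry1 kept its call only without wild-type library 1 or transgenic library 2 (adjusted p up to 0.156). The hour at which livers were taken is not stated in the labels.

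Of 28 acute-phase proteins, which the liver secretes in inflammation, 12 rose and 0 fell, and the median was 1.42, with 1.07 among batch A libraries and 1.75 among those of batch B. Batch A alone called 3 of them higher, where 2.25% of all genes were, and batch B alone 10, where 1.98% were. Orm2, an orosomucoid, had 313.6 to 1906 counts in wild type and 10315, 16617, 2907, 25653, 159259 and 57517 in transgenic libraries 1 to 6 (4.33 ± 0.60). Lcn2, the iron-scavenging lipocalin 2, had 205.6 to 1198 in wild type and 2161 to 82638 in transgenic liver (4.81 ± 0.72). The transgenic female, library 3, was the lowest transgenic library for both genes. Serpina3m rose by 2.17 ± 0.26 with no overlap, and the metallothioneins Mt1 and Mt2 by 3.67 ± 0.70 and 3.98 ± 0.84.

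The largest gains in share of a library's total were those of transferrin, haptoglobin, hemopexin, a beta-globin and serum amyloid A1. Haptoglobin, Hp, which binds free hemoglobin, took 0.352% ± 0.183 (SD, n = 6) in wild type and 1.68% ± 1.33 in transgenic liver. Hemopexin, Hpx, which binds heme, took 0.417% ± 0.145 and 1.43% ± 0.76. Hp and Hpx rose by 1.53 ± 0.38 and 1.31 ± 0.33, and both lost their calls without wild-type library 5 or 6 or transgenic library 2, Hp also without wild-type library 1 (adjusted p up to 0.0673 and 0.0655). Transferrin, Trf, at 1.43% ± 0.575 and 2.84% ± 1.34, did not pass (adjusted p = 0.392), nor did Saa1 (adjusted p = 0.142), which ranged from 631 to 1005015 counts in transgenic liver.

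Of 31 complement and coagulation factors 10 fell and 1 rose, with a median of -0.30. In males alone, and likewise with batch alone as covariate, 5 fell. C8a, C8b, C8g and C9, all of which form the membrane attack complex, fell by 2.20, 1.71, 1.77 and 2.58 on the log2 scale. C9 had 4624 and 6262 counts in the wild-type females, 23710 to 34059 in the wild-type males, and 647 to 11094 in transgenic liver. C3, the central component of the cascade, rose by 1.46 ± 0.35, a call lost without wild-type library 5 or 6 or transgenic library 2 (adjusted p between 0.0526 and 0.0708). Of the coagulation genes F11 (-1.16 ± 0.25), Klkb1 (-1.32 ± 0.18) and Proc (-0.78 ± 0.20) fell, while prothrombin F2 (-0.02 ± 0.22), F9 (0.11 ± 0.22) and F10 (-0.06 ± 0.28) did not pass.

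Neutrophil messages were far more abundant in transgenic liver. Of 16 neutrophil markers tested 13 rose and 0 fell, with a median log2 fold change of 4.92, and their summed counts ran from 146.7 to 804.4 in wild type and from 1366 to 54738 in transgenic liver. From the list, batch A alone called 6 higher and batch B alone 14, where 2.25% and 1.98% of all genes were. S100a8 had a lowest, median and highest count of 8.95, 22.3 and 112.8 in wild type and of 126.8, 1798 and 11593 in transgenic liver. Mmp8, a collagenase of neutrophil granules, had at most 4.46 in wild type and 49.3, 18.8, 651.9, 146.1, 867.9 and 570.7 in transgenic libraries 1 to 6. The groups did not overlap for either gene, and transgenic libraries 1 and 2, both batch A males, were the lowest of their group. Cd177, a neutrophil surface protein, was listed at 0 in all 6 wild-type libraries and was at 3.54 to 286.7 in transgenic liver. Mmp8 and Cd177 passed the filter on the mean only through the transgenic libraries, so neither could have been called lower. The filter therefore partly sets this list's counts and median. In tissue RNA, more cells of a type and more RNA per cell cannot be told apart.

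Markers of red cell precursors were mixed. Of 13 tested 8 rose and 2 fell, and the median was 1.67. Epb42, a membrane protein of red cells, was listed at 0 in every wild-type library and was at 2.33 to 58.5 in transgenic liver. It passed the filter on the mean only through the transgenic libraries, so it could not have been called lower. The beta-globin Hbb-bs rose by 2.51 ± 0.52, and it reached 1434822 counts in transgenic library 6, where globin messages took 4.05% of the total. The alpha-globins Hba-a1 and Hba-a2, which are nearly identical copies of each other, were at -2.33 ± 0.77 and -2.29 ± 0.78 and did not pass (adjusted p = 0.0732 and 0.0813). Car1, carbonic anhydrase 1, fell by 3.60 ± 0.44 with no overlap, and Tfrc, the transferrin receptor, rose by 1.96 ± 0.30. Alas2, the erythroid heme synthesis enzyme, fell by 1.27 ± 0.37, a call held only without transgenic library 2 or 6 (adjusted p up to 0.12). Without transgenic library 2, 4 of the 13 fell.

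Epo, the hormone that drives red cell formation, was listed at 0 in all 6 wild-type libraries and had 93.5, 63.5, 0, 1.15, 8.45 and 6.39 counts in transgenic libraries 1 to 6 (adjusted p = 0.045). It was picked out after its values were seen, and it passed the filter on the mean only through the transgenic libraries. The call was lost without any 1 wild-type library and without transgenic library 5 or 6 (adjusted p up to 0.109), and transgenic library 3 was at 0. Of 15 iron genes Tfrc and the importer Slc39a14 (1.39 ± 0.21) rose and 0 fell.

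Of 15 Kupffer cell markers 1 rose, the scavenger receptor Marco, from 162.3 to 529.7 counts to 1703 to 26841 (3.99 ± 0.43), and 3 rose without transgenic library 3. Clec4f, the marker most restricted to Kupffer cells, was at -0.26 ± 0.31. Of 17 monocyte and recruited macrophage markers Chil3, Itgam (2.09 ± 0.43) and Gpnmb rose and Spp1, osteopontin, fell (-1.35 ± 0.18). Without transgenic library 1, 5 of the 17 rose and 2 fell, without transgenic library 6, 2 fell, and with libraries scaled to the same total 6 rose. Chil3 had 2.44 to 5.40 counts in wild type in batch A and 41.2 and 44.3 in batch B, against 65.3 to 1283 and 1032 to 5052 in transgenic liver. The medians of the Kupffer and monocyte lists were -0.51 and -0.07 in batch A and 1.27 and 1.68 in batch B.

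Of 9 MHC class II genes tested, which present antigen to helper T cells, 6 fell and 0 rose, with a median of -2.32. H2-Eb1 (chr17:34305867-34316674), a class II beta chain, had a lowest, median and highest count of 784.3, 1091 and 1249 in wild type and of 62.3, 165.6 and 281.4 in transgenic liver (-2.99 ± 0.27, adjusted p = 2.78e-05). H2-Ab1 (-2.75 ± 0.25), H2-Aa (-2.85 ± 0.28), the invariant chain Cd74 (-2.32 ± 0.26) and the class II regulator Ciita (-2.35 ± 0.66) fell with it. H2-Eb1, H2-Ab1, H2-Aa and Cd74 did not overlap between the groups. Of 15 class I and immunoproteasome genes 5 fell, among them the immunoproteasome subunit Psmb9 (-1.58 ± 0.27) and beta-2 microglobulin, B2m (-0.91 ± 0.23). B2m lost its call without wild-type library 2, 3, 4 or 5 or transgenic library 3 (adjusted p up to 0.0797). Of the 15, 1 fell without wild-type library 2, 3, 4 or 5 or transgenic library 3, 2 without wild-type library 6 or transgenic library 4 or 5, and 3 without transgenic library 2. In males alone 1 fell, in batch A alone 0, in batch B alone 1, with batch alone as covariate 2, and with libraries scaled to the same total 1.

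Of 26 interferon-stimulated genes 1 fell, the chemokine Cxcl9 (-2.56 ± 0.68), a call lost without wild-type library 1, 3 or 4 or transgenic library 2, 3 or 5 (adjusted p up to 0.0855). Their median was -1.03 in batch A and 0.61 in batch B.

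Lymphoid markers included falls and a rise. Of 8 B and plasma cell markers tested, 1 (12.5%) rose, Ighm, and 1 (12.5%) fell, Cd79a. In that list 4 members were above 0 and 4 below, and the median was -1.05 in batch A and 1.16 in batch B. Igha (chr12:113254830-113260236), the constant region of immunoglobulin A, was picked out after its values were seen. It had a lowest, median and highest count of 226.4, 808.6 and 2131 in wild type and of 7.02, 19.8 and 50.4 in transgenic liver, with no overlap (-4.75 ± 0.41, adjusted p = 2.08e-05). Ighm, the constant region of immunoglobulin M, rose by 1.89 ± 0.34, and the B cell receptor subunit Cd79a fell by 2.10 ± 0.54. Cd79a lost its call without wild-type library 1, 2, 3, 5 or 6 or transgenic library 2 or 5 (adjusted p up to 0.0809), and it passed the filter on the mean only through the wild-type libraries. Of 14 T and NK cell markers 1 fell, the kinase Zap70 (-2.33 ± 0.25), and the list's median was -0.73 in batch A and 0.68 in batch B. Zap70 had 218.6 to 363.1 counts in wild type and 31.5 to 44.4 in transgenic liver in batch A, and 849 and 1293 against 271.2 to 399.5 in batch B.

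Of 18 sinusoidal endothelial markers the scavenger receptor Stab2 rose (1.52 ± 0.21, no overlap). Of 16 stellate cell and fibroblast markers Pdgfra rose (1.02 ± 0.24) and the matrix proteoglycan Lum fell (-1.18 ± 0.29). Pdgfra lost its call without transgenic library 3 (adjusted p = 0.0597), and Lum without transgenic library 2 or 3 or wild-type library 6 (adjusted p up to 0.0803). Of 6 cholangiocyte markers 0 were called in limma, 1 had an unadjusted p under 0.05, and 0 were called in the authors' deposited table. Sox9 had the smallest p among them (-0.84 ± 0.36, adjusted p = 0.159).

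**Figure D5:**
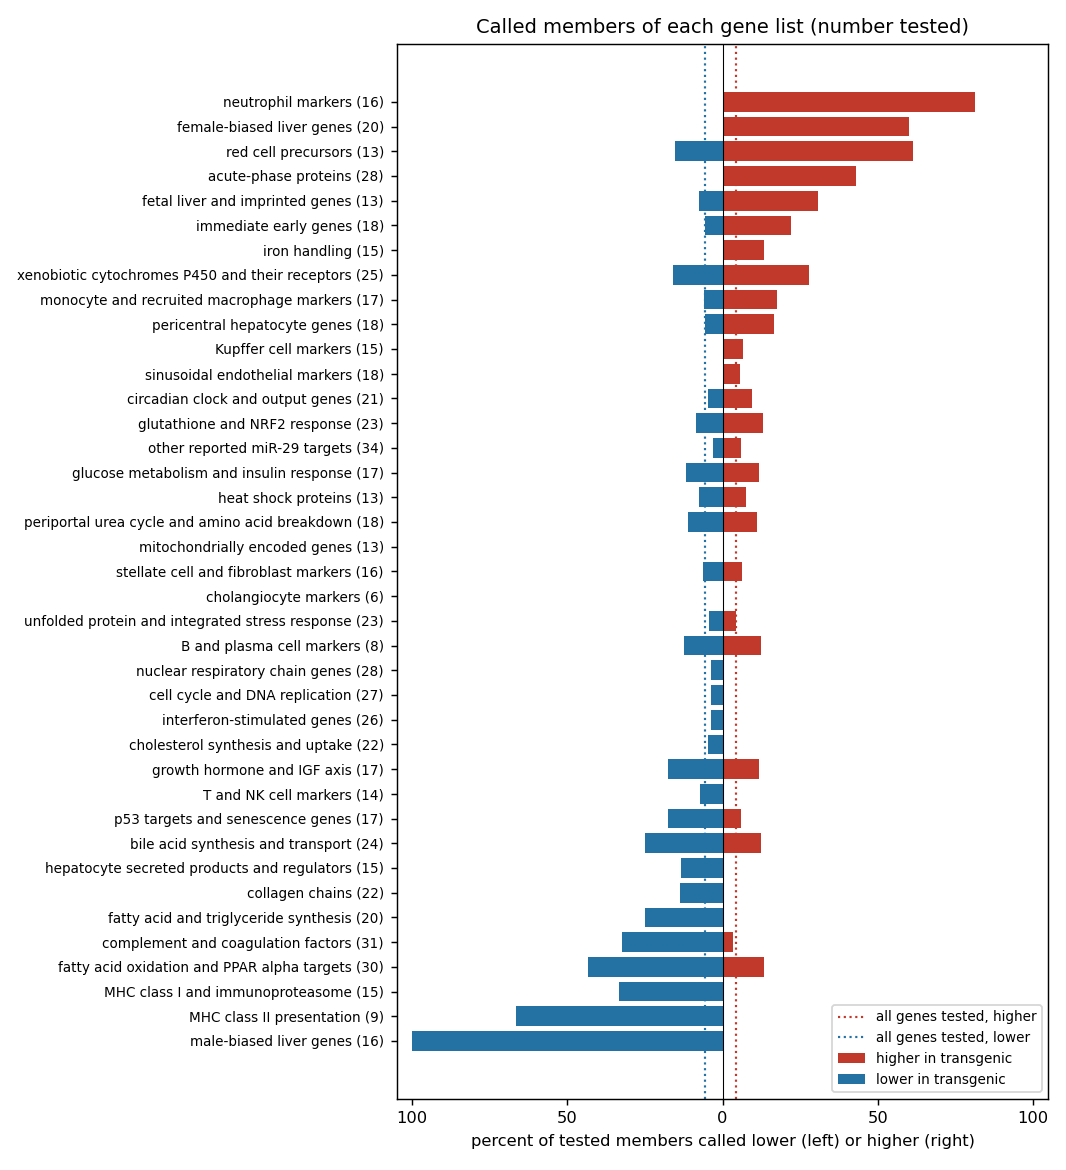
Percent of the tested members of each gene list that were called higher (red, right) or lower (blue, left) in transgenic liver; the number tested is in brackets, and dotted lines give the same percentages over all 14584 genes, 4.26% and 5.79%. Neutrophil markers (13 of 16 higher) and male-biased genes (16 of 16 lower) lie at the ends.

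Of 27 cell cycle and replication genes 1 fell, the atypical E2F factor E2f8 (-2.15 ± 0.57), a call lost without wild-type library 1, 2, 3, 4 or 6 or transgenic library 2 or 3 (adjusted p up to 0.106). Of 17 p53 target and senescence genes 1 (5.88%) rose and 3 (17.6%) fell. Perp fell by 1.08 ± 0.21 and the stress cytokine Gdf15 by 2.48 ± 0.61, the latter call lost without library 2 of either group (adjusted p up to 0.0602), when 1 of the 17 fell.

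Of 13 fetal and imprinted genes tested 4 (30.8%) rose and 1 (7.69%) fell. The fetal RNA-binding protein Igf2bp3 had 0.764 to 25.3 counts in wild type and 275.6, 87.3, 4.01, 77.6, 268.7 and 165.4 in transgenic libraries 1 to 6, so that only the transgenic female lay within the wild-type range (3.34 ± 0.68). Igf2bp3 passed the filter on the mean only through the transgenic libraries, so it could not have been called lower. Peg3, a paternally expressed zinc finger gene, rose by 1.75 ± 0.34, and the maternally expressed noncoding RNA Meg3 fell by 2.35 ± 0.42 with no overlap. H19, an imprinted noncoding RNA, ranged from 2.02 to 12899 in transgenic liver and did not pass (3.72 ± 1.52, adjusted p = 0.143).

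Of 28 nuclear genes of the respiratory chain 1 fell, the complex I subunit Ndufb3 (-0.73 ± 0.18), a call lost without wild-type library 2, 5 or 6 or transgenic library 2 or 5 (adjusted p up to 0.0767). Without wild-type library 1, 3 fell. Their median was -0.27, with 27 below 0, and the median was 0.00 after quantile normalization. Of 13 mitochondrially encoded genes 0 were called in limma, 0 had an unadjusted p under 0.05, and 0 were called in the authors' deposited table. The smallest p was that of mt-Cytb, a complex III subunit, at 0.44 ± 0.27 (adjusted p = 0.33). Of 13 heat shock genes Hspb8 rose (0.75 ± 0.18) and Hspb1 fell (-1.97 ± 0.49), and both lost their calls without wild-type library 5 or 6 or transgenic library 2, Hspb1 also without wild-type library 2 or transgenic library 5 (adjusted p up to 0.0677 and 0.0647).

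The messages that miR-29 is known to lower were examined through the seed match. The stretch of 7 bases that pairs with miR-29 bases 2 to 8, TGGTGCT, was searched on the sense strand of the longest annotated 3′ UTR of each gene, where 14.2% of 20995 genes hold it. An A after the match, where present, extends it to 8 bases. A shorter match followed by an A was not counted, so genes with only such a site are among those without a match. Match sites of 6 genes are shown, with the match in capitals, because they represent falls (Col1a1, Col5a3, Igf1), genes not called (Col3a1, Dnmt3a) and a rise (Bcl2l11). They lie, in that order, at chr11:94952538-94952544, chr9:20770504-20770510, chr10:87931671-87931677, chr1:45348982-45348988, chr12:3911405-3911411 and chr2:128158413-128158419 (GRCm38, DNA letters, strand of the gene).
Col1a1: tgggaaggaatttcTGGTGCTa
Col5a3: tccaccaggcctttTGGTGCTa
Igf1: gttttttagtacaaTGGTGCTa
Col3a1: tcaaaatgtctcaaTGGTGCTa
Dnmt3a: ccaggggaggtagcTGGTGCTa
Bcl2l11: tcatgtccctctctTGGTGCTg

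Genes with a match did not fall as a group. Of 2173 tested genes with at least 1 match 4.37% rose and 3.91% fell, with a median log2 fold change of 0.06. Of 10775 tested genes with a 3′ UTR and no match 4.50% rose and 6.32% fell, with a median of -0.01. Of 360 genes with at least 2 matches 3.61% rose and 3.89% fell (median 0.03), and of 449 with a match of 8 bases 4.45% rose and 6.24% fell (median 0.07). UTRs with a match were longer, with a median of 2550 bases against 1134. In the fifth of genes with the longest UTRs 4.07% with a match rose and 2.50% fell, against 4.29% and 4.05% without. In the fifth with the shortest UTRs 2% rose and 12% fell with a match (100 genes), against 4.37% and 9.63% without. These shares were not tested.

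Of 22 collagen chains tested 3 (13.6%) fell and 0 rose, where 5.79% of all genes fell and 4.26% rose, and the median was -0.30, with -0.81 among batch A libraries and 0.07 among those of batch B. Col1a1, a chain of fibrillar type I collagen, had a lowest, median and highest count of 168.4, 273.4 and 471.7 in wild type and of 33.5, 84.3 and 191.9 in transgenic liver. Transgenic library 1 lay within the wild-type range and the other 5 lay below it (-1.92 ± 0.43, adjusted p = 0.0137). The call was lost without transgenic library 3 (adjusted p = 0.0551). Col27a1 (-2.51 ± 0.40) and Col5a3 (-2.13 ± 0.44) were the other falls, and wild-type females were lower than wild-type males in both, by 1.72 and 2.26 on the log2 scale. Without transgenic library 1, 6 collagen chains fell, without wild-type library 5 or transgenic library 4, 5 did, and in males alone 2 did.

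Col3a1, of type III collagen, was at 87.3 to 970.3 counts in transgenic and 579 to 1446 in wild-type liver (-1.82 ± 0.55, adjusted p = 0.0524). Col4a1, of basement membranes (-0.17 ± 0.26), elastin, Eln, which holds 9 matches (-0.47 ± 0.37), and the matrix protein Sparc (-0.08 ± 0.27) did not pass. The methyltransferases Dnmt3a, with 5 matches (-0.11 ± 0.31), and Dnmt3b, with 1 (0.46 ± 0.34), did not pass either, and their groups overlapped. Of 34 other reported targets 2 (5.88%) rose and 1 (2.94%) fell, against 4.26% and 5.79% of all genes, with a median of 0.12. The fall was Igf1. The rises were the cell death activator Bcl2l11 (1.88 ± 0.28) and the basement membrane protein Nid1 (1.16 ± 0.31), the latter call lost without wild-type library 2, 3, 5 or 6 or transgenic library 1, 4 or 6 (adjusted p up to 0.095). Without wild-type library 2, 3, 5 or 6 or transgenic library 6, 1 of the 34 rose.

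The batches were compared as separate experiments. Batch A alone called 2.25% of genes higher and 3.02% lower. Of its 308 higher genes that were also tested in batch B, 243 were above 0 there, 61 were called higher and 0 lower, and the median went from 1.83 to 0.98. Of 421 lower genes 364 were below 0 in batch B, 114 were called lower and 4 higher, and the median went from -2.02 to -1.09. Over all 13629 genes tested in both, 58.6% had the same sign. The transgene effect differed between the batches for 96 genes (0.658%) by an interaction term. In males alone that count was 8, and with 1 library left out in turn it ran from 5, without wild-type library 3, to 284, without transgenic library 1. Batches differ in kit and sequencing site, which cannot be told apart. They also differ in sex make-up, which the count in males alone holds fixed, with fewer libraries.

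The transgenic female was then used as a library outside the fit. In the 9 male libraries 2.82% of genes were called higher and 3.04% lower. Of 407 genes called higher in males and measured in females, the transgenic female was above both wild-type females for 282, or 69.3%, where 44.8% of all genes showed this, and below both for 87. Of 437 genes called lower in males, it was below both for 361, or 82.6%, where 44% of all genes showed this, and above both for 43. The median difference among the higher genes was 2.19 in males and 1.02 in females, and among the lower genes -1.85 and -1.70. With 1 transgenic female there is no replicate check of these values.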

How the data were processed

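Liver RNA of 2-month-old mice was compared in 12 libraries, 6 a group. Per the submitters' processing notes the authors used STAR 2.5.3a, Salmon 0.6.0, DESeq2 and mm10. The deposited values are counts that the authors divided by size factors, a signal whose depth is unknown, for 48440 genes, of which 48058 were matched to GENCODE M21. Strand setting and annotation are not given in the sources used here, so antisense partners and near-identical copies (Mup, Ugt2b, Sult2a, Cyp2c, Ces, globins) are uncertain. The authors' deposited comparison table gives log2 fold changes, a Wald score and p-values, and its name records correction for batch and sex.

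Genes with a mean of at least 10 were tested on log2(value + 1), so fold changes of low genes are understated, with limma 3.58.1 (R 4.3.3, empirical Bayes with trend, two-sided) on group, batch and sex. P-values were adjusted by Benjamini-Hochberg over 14584 genes, with calls at 0.05. The scripts were tested on simulated data. Genes named were the 10 rises and 10 falls of smallest p with a mean of at least 100, up to 2 called members per list and direction, the 5 largest gains and losses of share, known targets, and further genes chosen after their values were seen. Some genes that this rule picks are not reported here. Lists and members were chosen with earlier results of these data known. Alternatives changed the pseudocount, filter, covariates, libraries, scaling, trend and tool. The 2-year-old mice entered only where stated.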

Additional observations from a re-analysis of the deposited data

Results flagged for a closer look

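In 8 of 264 groups of 6 libraries, 1 library stood apart from the other 5 by Dixon's criterion, which chance gives in about 5% of groups. Of these, 4 were the transgenic female, library 3: Creb3l3 was at 2557 normalized counts, Otc at 3027, Cd79a at 19.22 and Igf2bp3 at 4.012. The others were Ighm at 142.4 in transgenic library 2, Mup7 at 5314 in transgenic library 6, Brca1 at 18.44 in wild-type library 5 and Igf1 at 11388 in wild-type library 1. Whether sex sets library 3 apart was not tested, since it is the 1 transgenic female.

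Among the named genes Hmox1, heme oxygenase, differed between the batches by an interaction term. Its log2 fold change was 1.43 in batch A and 3.49 in batch B, a difference of 2.06.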

How the results depend on the processing

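The 1466 calls were 378 with no covariate (147 higher, 231 lower), 850 in males (409, 441), 755 in batch A (323, 432), 536 in batch B (287, 249) and 2204 in the authors' deposited table (1098 higher). Lower genes were 532 with equal totals and 558 with all 17 libraries. With 1 library left out, calls ran from 998 to 1812, rises from 422 to 736 and falls from 566 to 1076. The replicate block called 627 (254, 373), of which 613 were main calls. The replicate numbers are not used as pairs: correlations of same-numbered libraries ran from -0.227 to 0.593, and 1 of 6 correlated best with its own number.

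The batch interaction, 96 genes, gave 8 in males, 41 after quantile normalization, 63 at a mean of at least 100, and 5 to 284 with 1 library left out. Of 120 called named genes, 88 kept the call with any 1 library left out and 42 under every other setting, and 0 reversed in limma or the authors' table. The cause of these differences was not tested. Depth is unknown, and 6 libraries a group, with 1 transgenic female, limit the precision.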
